A study of Mus musculus with 15 samples.

Results

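Of the 37583 genes counted in sorted mouse skin tumour cells, 8 were taken because their levels lie apart in libraries labelled KO and WT. They are Eno1b, Rps4l, Fv1, Gm4735, Prl2c2, Prl2c3, Zfp990 and Zfp991, found in the count tables by Ensembl gene ID, and all 8 passed the filter on low counts. Because KO against WT chose them, their KO and WT levels are given as a description with no test, while differences between sorted populations, and differences of related and neighbouring genes, were tested. All mice were C57BL/6 and had been under DMBA/TPA, a mutagen and tumour promoter regime that induces skin tumours, for more than 24 weeks. The libraries labelled KO carry K14-cre and SIRT6 flox/flox, a design in which a keratin promoter drives Cre to delete Sirt6 in keratinocytes. The other libraries are labelled WT, with no further allele given. Each genotype was sorted by the surface markers CD34 and a6 (integrin alpha 6): CD34-positive a6-high cells, cells that were CD34-negative but still a6-high, and CD34-negative a6-low cells. Each of these 3 populations had 2 KO and 3 WT libraries, 6 KO and 9 WT libraries in all. The labels do not say whether libraries came from separate animals or pools, so the spread between them may be partly technical.

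The libraries held 19783456 to 28622043 gene counts in KO, against 10080902 to 21555469 in WT. Levels are counts-per-million values (CPM) on library sizes scaled by the trimmed mean of M-values (TMM). Krt14, a basal keratinocyte keratin, lay between 28325 and 44037 CPM in KO and between 31910 and 74974 CPM in WT. Sirt6 lay between 5.07 and 8.53 CPM in KO and between 4.45 and 10.5 CPM in WT, with overlapping ranges; counts over the whole gene do not check a deletion of part of it. The Y-linked gene Ddx3y stood at 51.9 to 74.9 CPM in KO replicate 2, in each population, and did not exceed 0.222 CPM in the other 12 libraries, so values are given for each KO replicate. Summed levels of other cell types' markers had overlapping ranges in KO and WT. They were 17.2 to 41.5 CPM in KO and 16.6 to 49.3 CPM in WT for 7 leukocyte genes and 1.71 to 8.13 CPM in KO and 1.05 to 51.3 CPM in WT for 6 endothelial genes. The 51.3 stood apart in WT replicate 3 of the CD34-positive a6-high cells, the next WT library being at 17.4 CPM. For 5 melanocyte genes the summed levels were 1.55 to 139 CPM in KO and 0.669 to 6.56 CPM in WT, the 139 standing apart in KO replicate 1 of the CD34-negative a6-low cells. They were 0.168 to 2.44 CPM in KO and 0 to 5.02 CPM in WT for 7 fibroblast genes, of which 2 were at 0 in every KO library and 1 in every WT library; none of the leukocyte, melanocyte or endothelial genes was. Single markers were less even. Of the 7 leukocyte genes 6 were positive in the sums (KO minus WT per replicate number), with a median log2 difference of 1.56, and Lyz2, a macrophage lysozyme, was at 3.93 ± 2.65 CPM in KO and 0.690 ± 1.19 CPM in WT (adjusted p = 0.461, edgeR). All 4 melanocyte genes tested were positive there, with a median of 2.92, and all 4 endothelial genes negative, with a median of -1.28; none of these lists had a gene that passed the test. The part of other cell types in the differences was not tested.

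Most of these genes belong to families of near copies. A retrogene or processed pseudogene arises when a messenger RNA is copied back into the genome, so it lacks introns and resembles its parent, whereas tandem duplication leaves copies side by side. A short read that matches several copies equally well cannot be assigned to any of them, and a few differing bases decide where the rest are counted. Fv1 is known in the mouse as a restriction factor against murine leukaemia virus, derived from an ancient retroviral gag gene, with alleles that differ between inbred strains.

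Eno1b (ENSMUSG00000059040, protein coding, tagged as a retrogene) matched transcripts of Eno1, the glycolytic enzyme alpha-enolase on chromosome 4, at 99.5% of 1652 aligned bases. Gm4735 (ENSMUSG00000064193, chromosome 2, processed pseudogene) matched Eno1 at 99.6% of 1302 bases, with 5 mismatches and a longest shared run of 725 bases, and Eno1b at 99.8%. Rps4l (ENSMUSG00000063171, chromosome 6, transcribed processed pseudogene) was further from its parent Rps4x, an X-linked gene for a protein of the small ribosomal subunit, at 79.7% of 814 bases, and closer to the pseudogene Rps4l-ps on chromosome 7, at 93.3% of 789 bases. Prl2c2 (ENSMUSG00000079092) and Prl2c3 (ENSMUSG00000056457) are neighbours on chromosome 13 with 0 annotated genes of the count tables between them, and matched each other at 99.5% of 842 bases. Zfp991 (ENSMUSG00000067916) matched Zfp992 at 99.2% of 2494 bases and the pseudogene Znf41-ps at 99.5% of 2413 bases, all on chromosome 4. Zfp990 (ENSMUSG00000078503, chromosome 4) was less close to any other gene, with 88.5% identity to Zfp989 over 2297 bases and 91.8% to Zfp988 over 1992 bases. Fv1 (ENSMUSG00000070583, chromosome 4) had no near copy.

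How much separates a copy from its relative can be read from the stretch of 75 bases, within the coding part, that holds the most differing bases. Differing bases are in capitals, and positions count from 1 at the 5′ end of the annotated transcript. Rps4l and Rps4x differ at 23 of 75 bases, so that reads can be told apart; Prl2c2 and Prl2c3, and Zfp991 and Zfp992, differ at 1 of 75 even in their most different stretch.
Rps4l, chromosome 6, bases 90 to 164: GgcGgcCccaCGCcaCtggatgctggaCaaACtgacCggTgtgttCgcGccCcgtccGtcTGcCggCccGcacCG
Rps4x, chromosome X, bases 130 to 204: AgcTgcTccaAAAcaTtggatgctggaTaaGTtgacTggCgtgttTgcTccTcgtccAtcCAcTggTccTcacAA
Prl2c2, chromosome 13, bases 58 to 132: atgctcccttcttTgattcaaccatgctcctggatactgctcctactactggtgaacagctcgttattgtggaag
Prl2c3, chromosome 13, bases 68 to 142: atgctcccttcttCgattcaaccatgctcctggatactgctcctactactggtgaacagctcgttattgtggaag
Zfp991, chromosome 4, bases 477 to 551: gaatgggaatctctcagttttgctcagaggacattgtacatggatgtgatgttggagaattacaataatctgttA
Zfp992, chromosome 4, bases 157 to 231: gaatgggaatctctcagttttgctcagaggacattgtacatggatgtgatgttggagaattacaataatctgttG

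The share of a transcript's words of 75 bases that occur in no other annotated gene puts a scale on this. It was 100% for Fv1, 93.3% for Rps4l and 91.5% for Zfp990. It was only 30.1% for Prl2c3, 20.4% for Eno1b, 20.0% for Zfp991, 19.9% for Prl2c2 and 10.5% for Gm4735. The parent Eno1 held 34.6% such words and Rps4x 47.1%. With 50-base words the order of the least separable genes was similar, with 4.0% for Gm4735 and 10.5% for Prl2c2. The sources used here do not state the read length, so the share that applied in counting is unknown. The tally of alignments in several places, which were not counted for any gene, made up 29.86 to 33.66% of all tallies in KO libraries. In WT libraries it made up 30.69 to 38.04%. A read may enter this tally more than once, so the share of reads is not known. The levels of Eno1b, Gm4735, Prl2c2, Prl2c3 and Zfp991 are therefore uncertain as levels of those loci, and each is read together with its relatives.

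**Figure D1:**
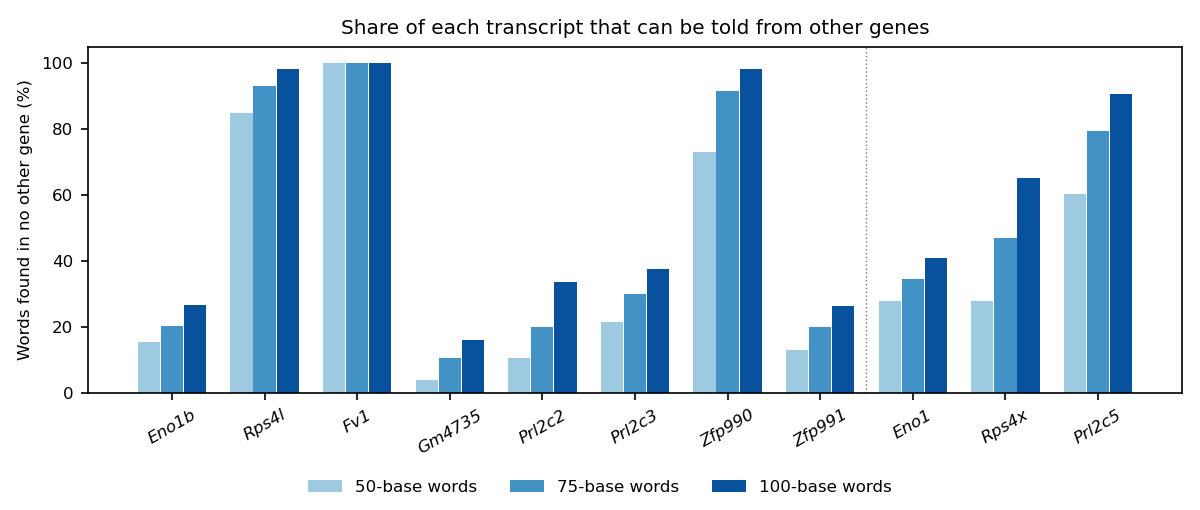
Percent of each gene's transcript words of 50, 75 or 100 bases (bars) found in no other annotated gene; the dotted line divides the 8 chosen genes from 3 relatives. Fv1, Rps4l and Zfp990 stand at 91.5% or more for 75-base words, and Gm4735 at 10.5%.

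In libraries of all 3 populations, KO lay wholly above WT for Eno1b, Rps4l, Fv1, Gm4735 and Zfp990 and wholly below it for Zfp991. That is 5 genes higher, 1 lower and 2 overlapping of 8, beside 0.382% of 14652 tested genes wholly higher and 0.362% wholly lower; the choice of the genes fixed these counts, and nothing is read from them. Prl2c2 and Prl2c3 overlapped only through 1 WT library, replicate 2 of CD34-negative a6-low; without it all 8 lay apart. Within CD34-positive a6-high cells 5 of the 8 were wholly higher in KO, beside 14.9% of tested genes, and 3 wholly lower, beside 13.2%. The counts were the same in CD34-negative a6-high cells, beside 16.5% higher and 13.7% lower. In CD34-negative a6-low cells 5 of the 8 were wholly higher, beside 8.51%, and 1 wholly lower, beside 6.38%.

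**Figure D2:**
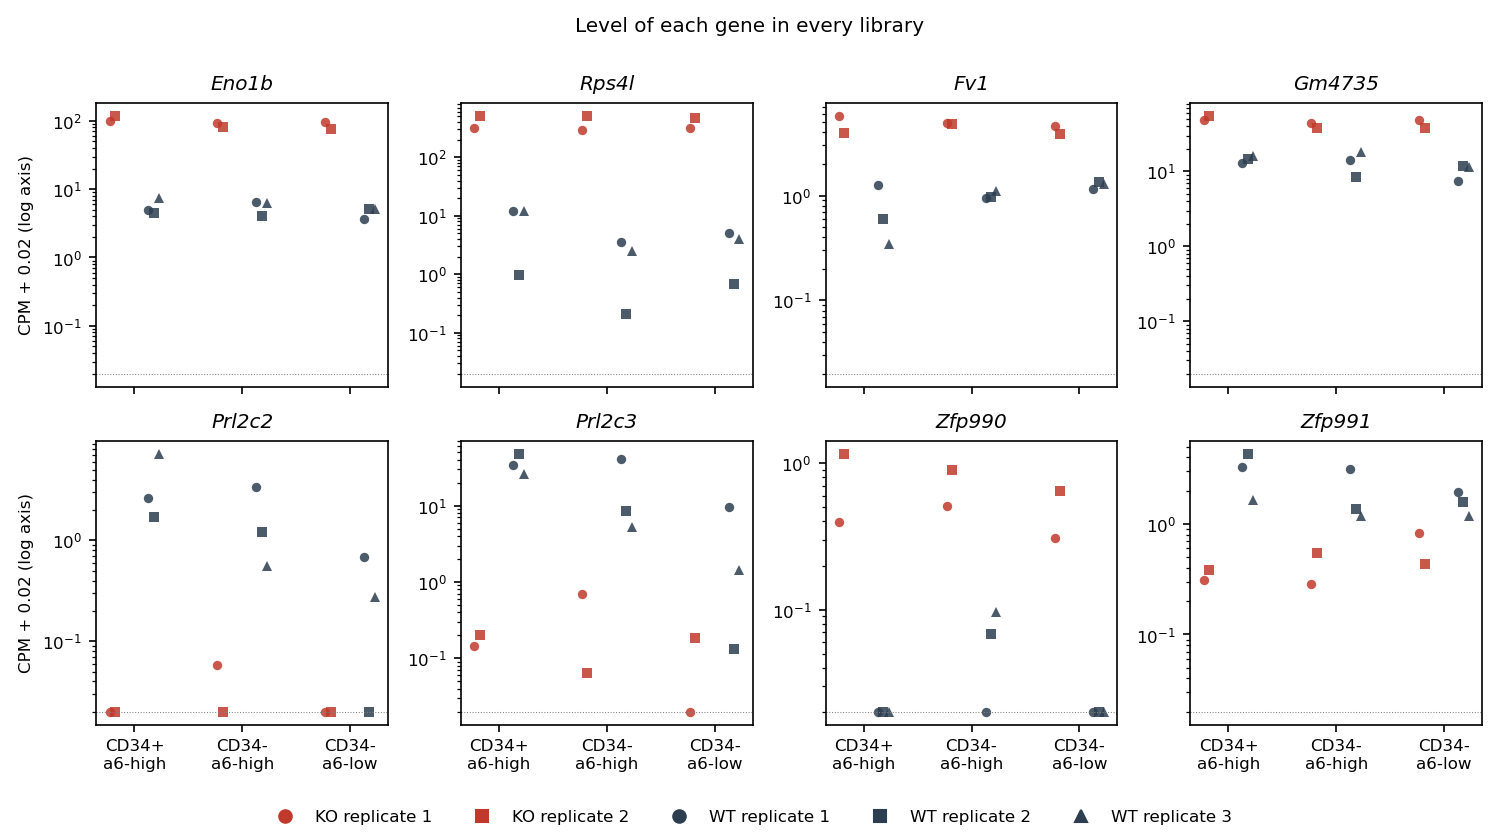
CPM plus 0.02 on a log axis for each of the 8 genes in every library, KO left of WT within each of the 3 populations; the dotted line marks a value of 0. KO points lie above WT points for Eno1b, Rps4l, Fv1, Gm4735 and Zfp990, and below them for Zfp991; Prl2c2 and Prl2c3 meet only at WT replicate 2 of the CD34-negative a6-low cells.

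Eno1b, a retrogene on chromosome 18, had 97.5 and 119 CPM in KO CD34-positive a6-high cells, against 4.98, 4.51 and 7.30 CPM in WT. It had 91.3 and 81.3 CPM in KO CD34-negative a6-high cells, against 6.42, 4.01 and 6.29 CPM in WT, and 96.6 and 75.6 CPM in KO CD34-negative a6-low cells, against 3.62, 5.10 and 5.06 CPM in WT. Over all libraries it averaged 93.5 ± 15 CPM in KO (SD, n = 6) and 5.25 ± 1.20 CPM in WT (SD, n = 9). Every KO library, from 75.6 CPM up, was far above the highest WT library, at 7.30 CPM, and the spread within a genotype was small beside the gap.

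Gm4735, which carries the same enolase sequence without introns, had 48.9 and 55.1 CPM in KO CD34-positive a6-high cells, against 12.8, 14.5 and 15.9 CPM in WT. In the other populations it ran between 37.5 and 47.6 CPM in KO and between 7.34 and 17.9 CPM in WT. The ratio of the means was 3.56 for Gm4735 and 17.8 for Eno1b, although the sequences agree at 99.8% of the aligned bases. In CPM, Gm4735 stood at 46.1 to 50.2% of Eno1b in KO libraries and at 203 to 323% in WT libraries, so Gm4735 was the lower of the pair in every KO library and the higher in every WT library.

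The parent Eno1 had its highest levels in WT, where its copies were low. It had 1690.5 and 1988 CPM in KO CD34-positive a6-high cells, against 2619.9, 2834 and 3134 CPM in WT. In the other populations it ran between 1267 and 1722 CPM in KO and between 1748 and 3269 CPM in WT, and over all libraries it averaged 1607 ± 259 CPM in KO (n = 6) and 2594 ± 536 CPM in WT (n = 9). In sums over the 3 populations of each genotype and replicate number, 2 KO against 3 WT (the labels do not say that a number marks 1 animal), its log2 difference was -0.67 ± 0.17 (SE), which missed the threshold (adjusted p = 0.461, edgeR's quasi-likelihood test). The sum of Eno1, Eno1b and Gm4735 averaged 1745 ± 280.1 CPM in KO and 2612 ± 540.1 CPM in WT, with overlapping ranges.

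Set against Eno1 per kilobase of transcript, the copies kept a nearly fixed share within a genotype. Eno1b stood at 6.35 to 6.75% of Eno1 over the 6 KO libraries and at 0.180 to 0.263% over the 9 WT libraries. Gm4735 stood at 4.24 to 4.61% of Eno1 in KO and at 0.653 to 0.855% in WT. Across populations, libraries with more Eno1 also had more of both copies, and the genotypes formed separate lines. Both shares rest on the few bases by which reads of these genes can be assigned.

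**Figure D3:**
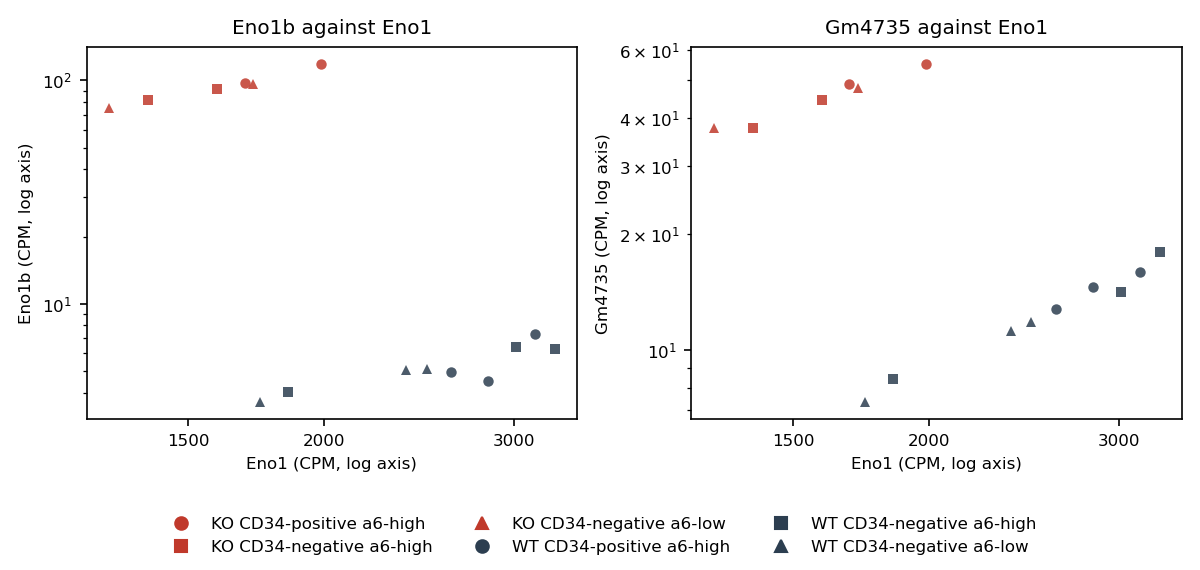
Eno1b (left) and Gm4735 (right) against Eno1, in CPM on log axes; each point is 1 library, colour gives the genotype and shape the population. The 6 KO points form a line above the 9 WT points in both panels, at 6.35 to 6.75% of Eno1 in KO and 0.180 to 0.263% in WT for Eno1b per kilobase.

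Of 8 glycolytic genes around enolase, 0 passed the test (edgeR) in any population or in the sums, beside 0.00683% of tested genes called in each population and 0.00641% in the sums. In the sums 2 of the 8 were positive and 6 negative, with a median log2 difference of -0.20 beside 0.03 over all genes, and 2 had an unadjusted p under 0.05, beside 10.6% of all genes. The smallest p belonged to Pkm, pyruvate kinase, with 2959 ± 565 CPM in KO and 3929 ± 807 CPM in WT (adjusted p = 0.465, edgeR).

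Rps4l showed the widest gap in CPM. It had 311 and 513 CPM in KO CD34-positive a6-high cells, against 12.1, 0.946 and 12.2 CPM in WT. It had 287 and 499.6 CPM in KO CD34-negative a6-high cells, against 3.53, 0.191 and 2.45 CPM in WT, and 321 and 463 CPM in KO CD34-negative a6-low cells, against 5.13, 0.666 and 3.91 CPM in WT. KO replicate 2 was above KO replicate 1 and WT replicate 2 was the lowest WT library in all 3 populations. The means were 399 ± 103 CPM in KO (n = 6) and 4.57 ± 4.60 CPM in WT (n = 9), a ratio of 87.3.

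Rps4x, by contrast, lay between 465 and 584 CPM in KO and between 535 and 687 CPM in WT, with a log2 difference of -0.17 ± 0.14 in the sums (adjusted p = 0.644, edgeR). Per kilobase, Rps4l reached 60.7 to 92.8% of Rps4x in KO libraries, median 78.1%, and 0.0345 to 2.18% in WT libraries. In KO libraries the copy was thus counted per kilobase at a level near that of the parent. Of 75-base words, 93.3% were unique in Rps4l and 47.1% in Rps4x, and the shares are not corrected for this. How the true levels of copy and parent compare is therefore uncertain. The sum of Rps4x, Rps4l and Rps4l-ps ran between 777 and 1086 CPM in KO and between 540.0 and 687 CPM in WT, with no overlap, Rps4l being the part that differed.

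Rps4l-ps, the nearest relative of Rps4l, was at 0 counts in all 9 WT libraries and at 0.798 to 1.51 CPM in the 6 KO libraries. Against a floor of 3 counts over the WT libraries together, its 170 KO counts put it at least 59.6-fold higher in KO. This bound is per total gene counts and leaves out the spread between libraries and the counting error of the 170. The KO minus WT test of Rps4l-ps missed the threshold in every population, the lowest adjusted p being 0.356 (edgeR). In the sums its log2 difference was 9.06 ± 0.84, which missed the threshold as well (adjusted p = 0.461, edgeR). Rps4l-ps shares words of 75 bases with Rps4l, and whether its counts are misassigned Rps4l reads was not tested.

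None of 31 small ribosomal subunit genes passed the test (edgeR) in any population, beside 0.00683% of tested genes, or in the sums, beside 0.00641%. In the sums 6 were positive and 25 negative, with a median log2 difference of -0.18 beside 0.03 over all genes, and 5 had an unadjusted p under 0.05, beside 10.6% of all genes. Rps15, a protein of the same subunit, had the smallest p, with 421 ± 48.1 CPM in KO and 737 ± 187 CPM in WT (log2 -0.76 ± 0.17, adjusted p = 0.461, edgeR).

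The WT level of Rps4l was not the same in all populations. Within a6-high cells of the same replicate number, the ratio of CD34-positive over CD34-negative was 1.08 and 1.03 in KO replicates and 3.43, 4.95 and 4.98 in WT replicates, the WT replicate 2 value resting on 13 and 4 counts. The log2 difference by CD34 was 1.08 ± 0.67 (adjusted p = 0.513, edgeR) without a block, and 1.06 ± 0.15 with genotype and replicate number as a replicate block (adjusted p = 0.00532, edgeR), which changes the call; with no filter on low counts and no block it also passed (adjusted p = 0.0122, edgeR), beside 4.94% of genes. In WT alone, with 3 libraries in each population and added after the levels were seen, it was 2.09 ± 0.91 (adjusted p = 0.507, edgeR), and 2.05 ± 0.22 with the block (adjusted p = 0.00766, edgeR). The difference between the genotypes in this change was -2.02 ± 1.33 (adjusted p = 1, edgeR) and -1.98 ± 0.31 with the block (adjusted p = 0.905, edgeR), so it missed the threshold in both fits. With the block, 5.41% of tested genes were called in this population comparison, and 1.02% in WT alone. Without it, 0.041% were called in WT alone. The pairing behind the block was read from the data and is not in the labels.

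**Figure D4:**
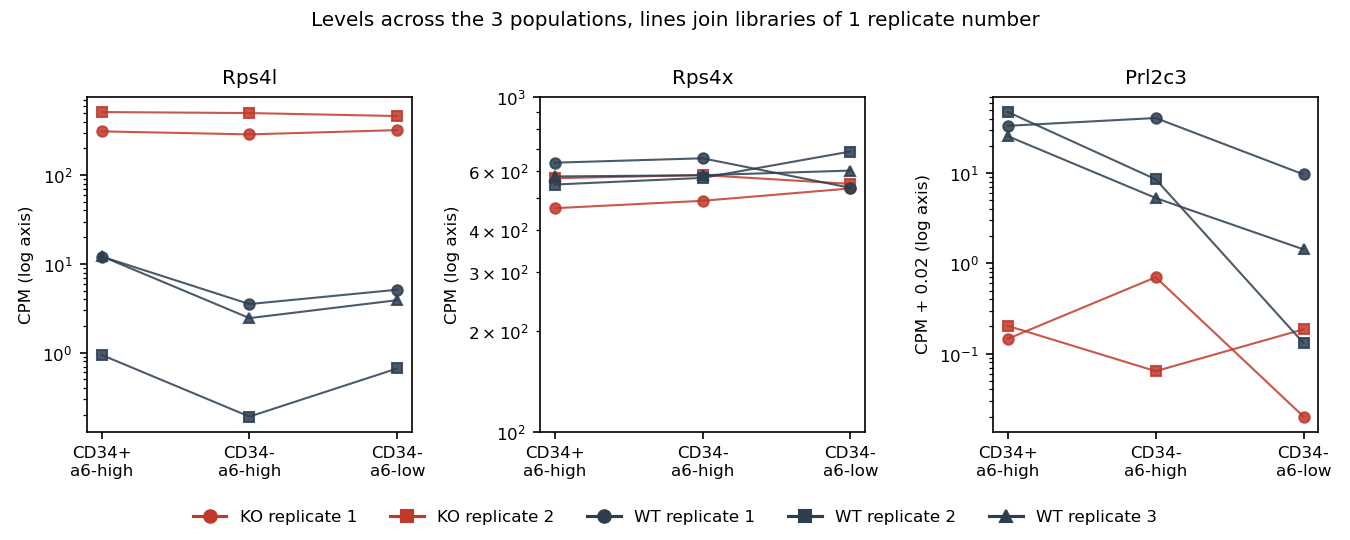
Rps4l, its parent Rps4x and Prl2c3 in each population, with lines joining libraries of 1 replicate number and KO in red, WT in dark blue; CPM on log axes, with 0.02 added for Prl2c3. Rps4l is at 287 to 513 CPM in KO and, in WT, highest in CD34-positive cells for each replicate; Rps4x lies between 465 and 687 CPM; Prl2c3 is lowest in CD34-negative a6-low cells in each WT replicate.

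Fv1, the restriction factor, had 5.75 and 3.93 CPM in KO CD34-positive a6-high cells, against 1.24, 0.582 and 0.328 CPM in WT. It had 4.85 and 4.77 CPM in KO CD34-negative a6-high cells, against 0.937, 0.956 and 1.07 CPM in WT, and 4.62 and 3.82 CPM in KO CD34-negative a6-low cells, against 1.13, 1.33 and 1.28 CPM in WT. KO averaged 4.62 ± 0.704 CPM (n = 6) and WT 0.985 ± 0.336 CPM (n = 9), a ratio of 4.69. All its 75-base words were unique among the annotated transcripts used here; misassignment of reads was not tested.

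Of 17 genes listed as retrovirus restriction and sensing genes, 14 were tested in each population and 0 passed (edgeR), beside 0.00683% of tested genes. An unadjusted p under 0.05 was found for 2 of the 14 in CD34-positive a6-high cells, beside 7.59% of all genes. It was found for 3 in CD34-negative a6-high cells, beside 9.59%, and for 4 in a6-low cells, beside 4.69%. In CD34-negative a6-high cells 13 of 14 were positive with a median log2 difference of 1.04 beside 0.05 over all genes, and in CD34-negative a6-low cells 14 of 14 with a median of 0.92 beside 0.04. In CD34-positive a6-high cells 6 of 14 were positive, with a median of -0.10 beside 0.01. In the same comparisons 6 of 7 leukocyte genes were positive in CD34-negative a6-high cells (median 1.03), 5 of 7 in CD34-negative a6-low cells (median 1.0) and 6 of 7 in CD34-positive a6-high cells (median 2.46). All 4 tested melanocyte genes were positive in the CD34-negative populations (medians 3.14 in a6-high and 4.70 in a6-low), and their part in the shift of the list was not tested. Eif2ak2, a double-stranded RNA sensor, was at 10.8 ± 3.11 CPM in KO and 5.90 ± 1.53 CPM in WT (log2 0.80 ± 0.23 in the sums, adjusted p = 0.461, edgeR). Bst2, the tetherin gene, was at 10.0 ± 11.3 CPM in KO and 3.05 ± 1.38 CPM in WT, with a spread in KO larger than its mean.

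Zfp990 and Zfp991 are zinc finger genes of a large cluster on chromosome 4, where KRAB zinc finger proteins, known as repressors of transposable elements, lie side by side. Zfp990 had 9 and 25 counts in KO CD34-positive a6-high cells, 13 and 20 in KO CD34-negative a6-high cells and 8 and 15 in KO CD34-negative a6-low cells. In WT it had 0 counts in 7 of 9 libraries and 1 count in each of 2. In all this is 90 KO counts against 2 WT counts. Per total gene counts, without TMM scaling, the pooled ratio was 47.3 with a 95% counting interval of 12.7 to 397. The interval leaves out the spread between libraries and is no test, since this gap chose the gene. KO replicate 2 was above KO replicate 1 in each population.

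Zfp991 went the other way. It had 0.294 and 0.366 CPM in KO CD34-positive a6-high cells, against 3.25, 4.29 and 1.64 CPM in WT. In the CD34-negative populations it ran between 0.265 and 0.800 CPM in KO and between 1.15 and 3.10 CPM in WT. KO averaged 0.444 ± 0.197 CPM and WT 2.16 ± 1.12 CPM, so WT was 4.86 times as high.

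Zfp992, which shares nearly all of its sequence with Zfp991, was at 0.920 to 1.55 CPM in KO and at 0.128 to 1.67 CPM in WT. Its WT libraries fell apart by replicate number: replicate 2 was at 1.67, 1.1 and 1.22 CPM, within the KO range or just above it, while replicates 1 and 3 were at 0.128 to 0.335 CPM. Zfp991 showed no such break at WT replicate 2, with 4.29, 1.34 and 1.55 CPM. The log2 difference of Zfp992 was 1.05 ± 0.85 in the sums (adjusted p = 0.644, edgeR). The sum of Zfp991, Zfp992 and Znf41-ps averaged 1.75 ± 0.362 CPM in KO and 3.17 ± 1.48 CPM in WT, with overlapping ranges.

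Of 11 genes listed as partners of KRAB zinc finger proteins, 0 passed the test (edgeR) in any population, beside 0.00683% of tested genes. In the sums 0 passed as well, beside 0.00641%, and 6 were positive and 5 negative. An unadjusted p under 0.05 was found for 3 of the 11 in the sums, beside 10.6% of all genes. In the populations it was found for 2 in CD34-positive a6-high cells (beside 7.59%), 3 in CD34-negative a6-high cells (9.59%) and 1 in a6-low cells (4.69%). Cbx5, a heterochromatin protein, was at 36.2 ± 10.7 CPM in KO and 53.3 ± 15.6 CPM in WT (adjusted p = 0.461, edgeR).

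Prl2c2 and Prl2c3 encode proliferins, secreted hormones of the prolactin family known from placenta and from growing fibroblasts. Prl2c3 had 0.126 and 0.183 CPM in KO CD34-positive a6-high cells, against 33.5, 47.7 and 25.7 CPM in WT. It had 0.682 and 0.0438 CPM in KO CD34-negative a6-high cells, against 40.9, 8.55 and 5.29 CPM in WT. In CD34-negative a6-low cells it had 0 and 0.166 CPM in KO, against 9.69, 0.111 and 1.41 CPM in WT, where WT replicate 2 fell inside the KO range with 1 count.

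Prl2c2 was counted far less. It had 1 count over the 6 KO libraries and 263 over the 9 WT libraries. Per total gene counts, without TMM scaling, pooled WT was 250.2 times pooled KO, with a 95% counting interval of 44.5 to 9918. Here too the interval leaves out the spread between libraries and is no test of the gap. The WT level of Prl2c2 ran between 0 and 7.21 CPM, highest in replicate 3 of the CD34-positive a6-high cells and at 0 in replicate 2 of the CD34-negative a6-low cells. With 99.5% identity between the pair, how counts divide between Prl2c2 and Prl2c3 is uncertain, and the sum is the safer value.

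The sum of Prl2c1, Prl2c2, Prl2c3 and Prl2c5 was 0.0438 to 0.720 CPM in the 6 KO libraries and 0.111 to 51.6 CPM in the 9 WT libraries. In WT it stood at 39.3, 51.6 and 35.7 CPM in CD34-positive a6-high cells, 47.1, 10.5 and 6.44 CPM in CD34-negative a6-high cells and 11.1, 0.111 and 1.67 CPM in CD34-negative a6-low cells. Prl2c5, which holds 79.5% words of its own, was at 0 to 0.509 CPM in KO and at 0 to 2.92 CPM in WT. Its log2 difference was -5.14 ± 1.75 in CD34-positive a6-high cells (adjusted p = 0.652, edgeR) and -7.55 ± 2.36 in CD34-negative a6-high cells (adjusted p = 0.498, edgeR), so it did not pass the test. In CD34-negative a6-low cells it was 0.02 ± 1.59 (adjusted p = 0.998, edgeR), with 14 counts in 1 KO library and 14 in 1 WT library. With no filter on low counts it passed in both a6-high populations, at adjusted p of 0.00563 and 0.00131 (edgeR), beside 0.775% and 1.02% of genes. Prl2c1 had 0 counts in KO and 17 in WT, at least 5.39-fold lower in KO against a floor of 3 counts over the KO libraries. This bound is per total gene counts and leaves out the spread between libraries.

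Among CD34-negative cells, Prl2c3 was higher in a6-high than in a6-low cells of each WT replicate, with ratios of 4.23, 77.1 and 3.75, the 77.1 having 1 count as its denominator. In WT replicate 1, with the ratio of 4.23, Itga6 RNA was not lower in a6-low cells (471 CPM) than in a6-high cells (393 CPM). In KO, Prl2c3 had 0.682 CPM in a6-high and 0 in a6-low cells of replicate 1, but 0.0438 and 0.166 CPM in replicate 2. Its log2 difference over both genotypes was 2.19 ± 1.11, which missed the threshold (adjusted p = 0.503, edgeR). Leaving out single libraries it ran between 0.73, without KO replicate 1 of the CD34-negative a6-high cells, and 4.03, without KO replicate 2 of the a6-low cells. With no filter on low counts it passed (log2 2.18, adjusted p = 0.0068, edgeR), as did 2.39% of genes. Of 12 genes of prolactin receptors and their signalling, 9 were tested and 0 passed (edgeR) in any population, beside 0.00683% of tested genes. In the sums 0 passed as well, beside 0.00641%, and 7 were positive and 2 negative. The receptor Prlr was at 3.37 ± 2.98 CPM in KO and 5.24 ± 4.29 CPM in WT (adjusted p = 0.659, edgeR).

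Between populations, 0 of the 8 genes passed edgeR's quasi-likelihood test for CD34-positive against CD34-negative a6-high cells, where 1.17% of tested genes did, and 0 had an unadjusted p under 0.05, beside 15.1%. For a6-high against a6-low CD34-negative cells 0 of 8 passed, beside 0.00683%, and 0 had an unadjusted p under 0.05, beside 11.1%. The a6 label was not mirrored in Itga6 RNA in WT replicate 1 and KO replicate 2, which limits every comparison by a6. For the difference of the KO minus WT difference between populations, 0 of 8 passed in either contrast, beside 0.0% of tested genes, and 0 had an unadjusted p under 0.05, beside 1.09% by CD34 and 1.15% by a6. DESeq2 also called 0 of 8 in each, beside 5.83% by CD34, 1.92% by a6, and 0.00684% and 0.0% in the 2 contrasts of differences. Eno1b had log2 differences of 0.17 ± 0.19 and 0.14 ± 0.19 in the population comparisons (adjusted p = 0.793 and 0.854, edgeR), and Gm4735 of 0.22 ± 0.21 and 0.18 ± 0.21 (adjusted p = 0.736 and 0.822, edgeR). For Fv1 these were -0.20 ± 0.31 and -0.07 ± 0.31, and for Zfp991 0.24 ± 0.44 and -0.18 ± 0.42.

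Of 25 listed relatives of the 8 genes, 10 reached the level for testing and 0 passed in any population (edgeR), beside 0.00683% of all tested genes in each, or in the sums, beside 0.00641%. DESeq2 called 0 as well, beside 0.185%, 0.26% and 0.041% of tested genes in the populations and 0.917% in the sums. An unadjusted p under 0.05 was found for 2 of the 10 in CD34-positive a6-high cells, beside 7.59% of all tested genes, for 2 in the CD34-negative a6-high cells, beside 9.59%, for 1 in the a6-low cells, beside 4.69%, and for 2 in the sums, beside 10.6%. Eno2, Eno3 and Eno4, the other enolase genes, had log2 differences of 0.94 ± 0.61, -0.46 ± 0.41 and 0.88 ± 0.57 in the sums. Among zinc finger relatives Zfp984 had -0.54 ± 0.28, Zfp933 0.35 ± 0.27 and Zfp993 -0.66 ± 0.55.

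In gene order, Zfp990, Zfp991, Fv1 and the parent Eno1 lie on chromosome 4 in that sequence, with 41, 22 and 81 genes between one and the next, of which 5, 5 and 41 were tested. The 5 tested genes on either side of each member make 60 different genes, and 0 of them lay apart between KO and WT over all 15 libraries, beside 0.744% of tested genes. In the sums 0 of the 60 passed the test (edgeR), 5 had an unadjusted p under 0.05, beside 10.6% of all genes, and the median log2 difference was -0.09. Those 5 were Sema6a and Dtwd2 beside Eno1b (log2 1.88 and 0.72), Tmtc1 beside Rps4l (1.69), Prl2c5 beside the proliferins (-3.50) and Znf41-ps between Zfp990 and Zfp991 (-1.83).

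Among 11936 other genes with a mean of at least 1 CPM, the pattern over all 15 libraries most like that of Eno1b belonged to Arl14ep, with Pearson r of log2(CPM + 1) of 0.873, then Ercc5 (0.870) and Gpc2 (0.868). For Rps4l these were Prkcb (0.910) and Snx25 (0.877), for Fv1 Coa5 (0.931), Arl14ep (0.920) and Ercc5 (0.896), and for Gm4735 Arl14ep (0.833), Odf2 (0.812) and Snx25 (0.803). Prl2c3 was closest to Cpe (0.879), B9d2 (0.874) and Spink2 (0.861), Prl2c2 to B9d2 (0.856), Gm6768 (0.854) and Ptov1 (0.836), and Zfp991 to Cpe (0.883), Gm11663 (0.862) and Capns1 (0.854). Zfp990 was closest to Clec2g (0.917) and Trps1 (0.874). These values span both genotypes, libraries of 1 replicate number may share an animal, and the gap between KO and WT enters each of them. Arl14ep was at 17.1 CPM in KO and 11.5 CPM in WT on average, a far smaller gap than that of the genes it accompanies.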

How the data were processed

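RNA of FACS-isolated skin tumour cells was made into SMART-Seq v4 cDNA libraries, per the labels' protocols. The deposited values are whole-number counts per Ensembl gene, made without strand per the deposited file names; the submitters' processing notes name STAR 2.3.0, Picard 1.100, HTSeq 0.6.0 and mm9. Gene names, order and transcripts came from GENCODE M21, a later build, so no coordinates are given. Differences were tested with edgeR 4.0.16 (quasi-likelihood, TMM, 14652 genes after filterByExpr, 15597 in sums, Benjamini-Hochberg at 0.05) in R 4.3.3, with all 15 libraries in 1 fit, and checked with DESeq2 1.42.0. Relatives were found with BLAST+ 2.17.0 on transcripts, since protein sequences were not used here. The SE given with a log2 difference is the size of that difference divided by the square root of the test's F value. It is an approximation and is unreliable where F is small. Counting intervals are exact at 95% and cover counting error only. The fit was tested on simulated data: in the 3 KO comparisons 56 to 60% of 4-fold changes and 6 to 7% of 2-fold changes were recovered. Deviations from the group mean of same-numbered a6-high libraries, with and without CD34, correlated at 0.104, 0.126 and 0.374 in WT. The 2 KO pairs share 1 value, 0.53, because the deviations of 2 libraries mirror each other. On this narrow basis these libraries were taken as pairs from the data. Pairs of a6-high and a6-low libraries (-0.012 to 0.466) and KO and WT numbers (-0.501 to 0.105) were not. The block of genotype and replicate number nonetheless held all 15 libraries in 1 fit, the a6-low ones included. The genes named are the 8 members, tested relatives, 5 tested neighbours on each side, the 3 most alike genes, and up to 3 of smallest p per list; some genes that this rule names are not reported here. Rps4l-ps and Znf41-ps were added as close sequence matches. The members and lists were chosen with earlier results of these data known.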

Additional observations from a re-analysis of the deposited data

How the results depend on the processing

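The alternatives were DESeq2, its size factors, no filter on low counts, at least 10 CPM in 2 libraries, only the groups compared, a replicate block and leaving out each library. With no filter 1 of the 8 genes passed in CD34-positive against CD34-negative a6-high cells (Rps4l), 1 in a6-high against a6-low cells (Prl2c3), and 1 relative (Prl2c5) in KO against WT in CD34-positive and 1 in CD34-negative a6-high cells. With genotype and replicate number as a replicate block 1 of 8 passed in the CD34 comparison (Rps4l, also in WT alone), and the log2 difference of Prl2c3 was 0.31 (adjusted p = 0.923, edgeR), against -0.14 without the block. With the replicate number as a replicate block, 0 relatives passed in KO against WT. The block changed no other call. Leaving out single libraries, the CD34 difference ran between -0.86 and 0.58 for Prl2c2 and between -0.57 and 1.32 for Prl2c3, and the a6 difference between -0.47 and 0.09 for Zfp991, so the sign of these 3 depended on the library left out: KO or WT replicate 1 of the CD34-negative a6-high cells for the CD34 differences, and KO replicate 1 of either CD34-negative population for Zfp991. The cause was not tested. The number of genes lying apart in all libraries ran between 6 and 8. Comparisons of 2 against 3 libraries limit what could be called, and counts under about 10 a library limit Zfp990, Prl2c2 and the KO levels of Prl2c3.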
